A study of Mus musculus with 23 samples.

Results

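Contacts of 4 bins of chromosome 5 that flank the Shh gene were examined in 5C data from mouse cells and embryos. 5C (chromosome conformation capture carbon copy) fixes chromatin, cuts it with HindIII, ligates ends that lie close together, and reads those ligation products whose ends match a chosen set of oligonucleotides. The deposited matrices divide the region into 80 bins of 21 kb in the mm9 build. The 4 bins are named there bin20|mm9|chr5:28737087-28758087, bin21|mm9|chr5:28758087-28779087, bin23|mm9|chr5:28800087-28821087 and bin24|mm9|chr5:28821087-28842087, and are called bins 20, 21, 23 and 24 here. Bin 22 (chr5:28779087-28800087), the Shh bin, lies between them and was left out. The members were all bin pairs with at least 1 end in bins 20, 21, 23 or 24, which are 314 of the 3240 pairs of the matrix. Of these, 302 had a value in the full matrices and 293 of those joined bins at least 2 apart. The rule uses bin numbers only.

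Shh encodes Sonic hedgehog, a secreted signal that patterns the limb, the neural tube and other organs. Its limb enhancer, the ZRS, lies far away inside an intron of Lmbr1. Both lie in 1 topologically associating domain, a stretch of chromatin whose parts contact each other more than they contact the flanks. CTCF is a DNA-binding protein that, with cohesin, is found at many domain ends. In a contact map, a bin at a domain end often shows a stripe, a line of raised contact that runs from the bin into 1 domain, and a spot where both ends of the domain meet. In RefSeq's gene order for another mouse build (GRCm38.p6), Rbm33 neighbours Shh on one side, and Rnf32 followed by Lmbr1 lie on the other. The position of genes other than Shh within the mm9 bins was not looked up.

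The study asked how deletions of CTCF sites and of larger stretches alter the contacts of this region. E14 mouse embryonic stem cells (ESC) gave 7 groups of 2 libraries each, labelled wild type, DCTCF1, DCTCF2, DCTCF3, DCTCF4, DCTCF5 and D35. CD1 mouse embryos at E11.5 gave anterior limb bud (2 libraries), posterior limb bud (2), embryonic bodies (1) and whole embryos labelled D700 (2, each from 2 technical replicates). The sources used here do not name the sites removed in the DCTCF lines or say whether a line is 1 clone. In the D700 matrices 32 bins, 27 to 58, are absent, a stretch of 672 kb (chr5:28884087-29556087) that was taken as the deletion, and in both D35 libraries bin 65 is at 0. Bins 25, 29 and 64 had no value in any library. No unedited whole embryo was analysed here, so for D700 the tissue and the deletion cannot be told apart. Both D35 libraries were run in a later year than any wild type ESC library, so line and run year cannot be told apart there. For DCTCF2 replicate 2, the title calls the sample a biological replicate and the run label marks a technical one. Apart from the lone body library, the titles call the replicates of every group biological. Nothing in the labels says that they came from separate cultures or litters. The p-values therefore measure the spread between these libraries, which may be technical.

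A contact value here is the deposited value after every library was scaled to the same total over pairs at least 2 bins apart. The deposited totals ran from 62111.91 to 106302.61 per library. Pairs with an end in the 4 bins held 10.7% to 13.6% of the total in the 19 full libraries, and 16.1% and 17.5% in the D700 libraries. These shares are not alike, since such pairs are 293 of 2853 in the full matrices and 169 of 993 in the smaller D700 matrices. The unit and the sequencing depth behind these values are unknown, so no counting interval is given. Neighbouring bins share values. Bins 20 and 21 held identical values at 29.9% to 31.2% of their partners. Bin 23 and the Shh bin did so at 53.2% to 54.5%, so most values of bin 23 are also those of the bin left out. Bin 24 held the same value for both members of all 36 partner pairs compared (neighbouring partners, such as bins 60 and 61), and bin 23 for 52.8% to 55.6% of them. Neighbouring pairs are therefore not independent measurements, least of all for bin 24.

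In the 19 full libraries, bins 20 and 21 contacted the chromatin to their left more than that to their right, and bins 23 and 24 contacted the chromatin to their right more. The measure is log2 of the mean contact to the right over the mean contact to the left, taken over 42 to 420 kb at distances with a value on both sides. For bin 20 it was -1.30 in the lowest library, -1.08 in the median and -0.72 in the highest, below 0 in every one of the 19. For bin 21 it was -1.31, -0.49 and 0.05, and 1 library (posterior limb bud replicate 2) was above 0. For bin 23 it was -0.00, 0.42 and 0.80, above 0 in 17 libraries. For bin 24 it was 0.48, 0.94 and 1.52, above 0 in all 19. Bin 22 lay between the pairs, at -0.51, 0.14 and 0.59, with 11 libraries above 0.

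The 4 bins kept 1 order. The values rose from bin 20 to 21 to 23 to 24 in 18 of 19 libraries, and the exception was DCTCF1 replicate 1, where bin 21 (-1.31) lay just below bin 20 (-1.29). Among the 54 bins with this measure, ranked from the most rightward, bin 24 was first in 9 libraries and never lower than 8th. Bin 20 ranked between 46 and 53. Neighbouring bins had like values. The means over the libraries were -1.12 for bin 18, -1.33 for bin 19 and -1.02 for bin 20, and 1.05 for bin 24, 0.89 for bin 26 and 1.02 for bin 27. In 16 of 19 libraries, bins 20 and 21 were below 0 and bins 23 and 24 above it. By this description the sign changed within bins 21 to 23, the Shh bin and the bins beside it. In the remaining libraries bin 21 lay above 0 or bin 23 just below it.

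**Figure D1:**
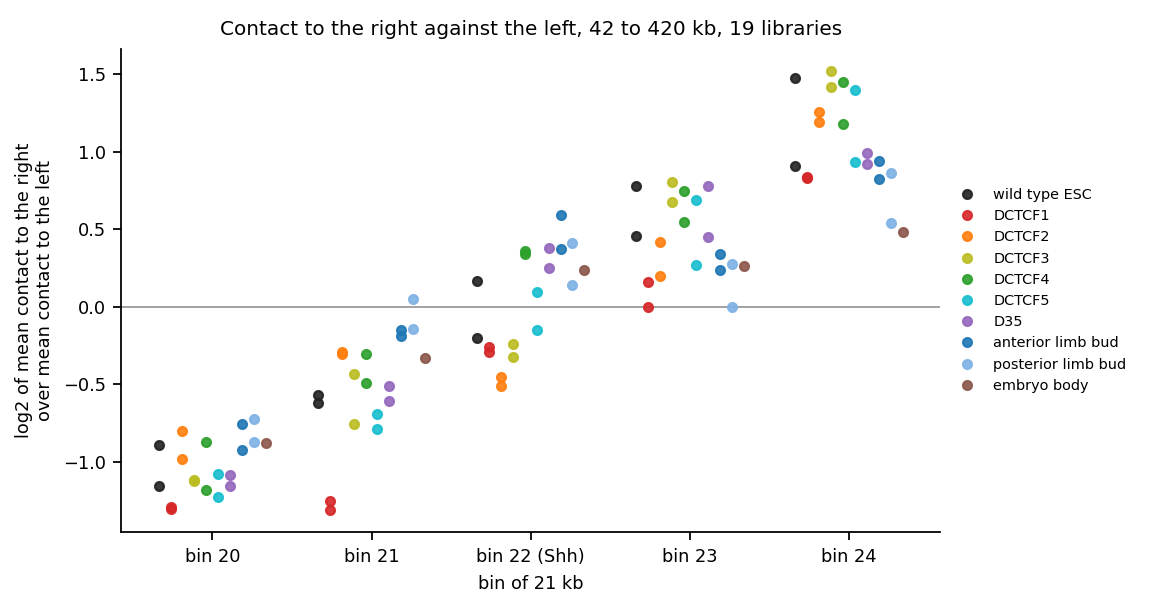
Each point is 1 library's log2 of mean contact to the right over mean contact to the left (42 to 420 kb) for the bin on the x axis, coloured by group. Bin 20 lies below 0 and bin 24 above 0 in all 19 libraries, and both DCTCF1 points lie lowest for bin 21.

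The direction held to different distances in different bins. Bin 20 had more contact to the left at 42 to 126 kb in all 19 libraries, with median contact values of 57.3 on the left and 21.9 on the right. At 273 to 420 kb the medians were 24.3 and 12.9, again with the left higher in all 19. Bin 21 was near even close by, at 35.5 on the left and 33.5 on the right over 42 to 126 kb, where the right was higher in 8 libraries. Farther out its left side was higher in 18 of 19 libraries, at 28.9 against 17.2 over 147 to 252 kb and at 32.6 against 18.9 over 273 to 420 kb.

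To the right of Shh the picture was turned. Bin 24 had more contact on its right in all 19 libraries in each of the 3 bands. Its medians were 33.3 on the left and 54.7 on the right over 42 to 126 kb, 12.0 and 37.4 over 147 to 252 kb, and 18.1 and 33.8 over 273 to 420 kb. Bin 23 had low contact on both sides, at 13.7 and 21.6, 11.499 and 17.0, and 14.4 and 17.3 in the same bands. Its right side was higher in 17, 19 and 14 libraries.

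**Figure D2:**
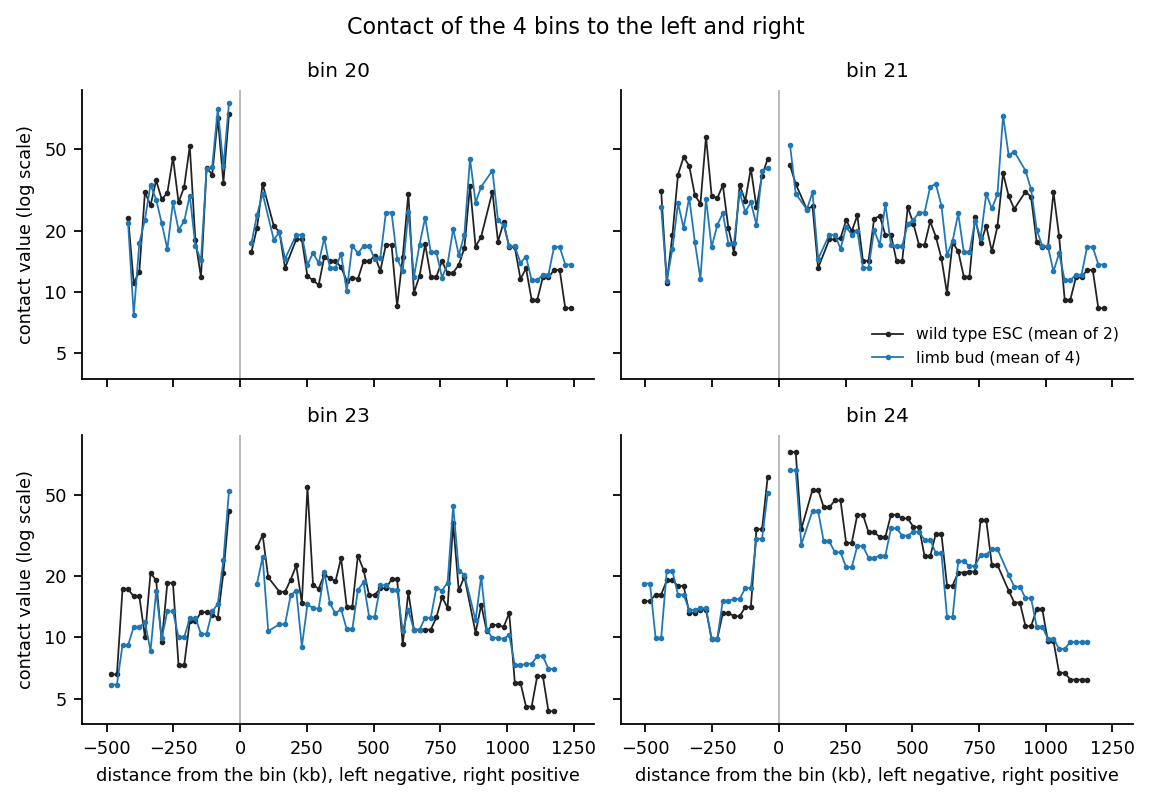
Mean contact value (log scale) of each bin with every partner at least 2 bins away, against distance in kb (left negative, right positive), for wild type ESC (mean of 2 libraries) and limb bud (mean of 4). Bin 24 stays higher to its right than to its left, and bins 20 and 21 rise again on the far right, where bins 60 to 67 lie.

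Beyond 420 kb the region holds at most a few partners to the left of these bins, so only the right side is described. Bin 24 held a mean contact value of 28.4 ± 4.2 (SD, n = 2) over 441 to 840 kb in wild type ESC, against 10.3 ± 1.5 over 861 to 1239 kb. For bin 21 the levels were 18.5 ± 1.8 and 17.6 ± 0.75, so they differed by less than the replicate SD of the nearer band. Bin 20 had 14.4 ± 0.49 and 15.6 ± 0.010, and bin 23 had 16.8 and 8.4. In limb bud, the nearer band of bin 21 stood at 26.1 and 27.6 in the anterior libraries and at 24.8 and 23.2 in the posterior ones.

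The limb bud libraries also have matrices of whole-number counts for single HindIII fragments, which place the change of direction more finely. They hold 343 fragments in 2 sets, with counts between the sets (29392 measurable pairs), and 12 fragments lie in the 4 bins. Total counts were 749738 to 1400833 per library, of which 6.63% to 7.25% had an end in the 4 bins. For each fragment, log2 of the count per partner to the right over that to the left was taken over the same 42 to 420 kb. The 3 well counted fragments of bin 20 had means of -1.53, -1.10 and -1.23 over the 4 libraries. The 3 fragments of bin 21 stood at -0.43, -0.19 and -0.21, all below 0 in all 4 libraries.

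Within the Shh bin, the fragment Shh_145 (chr5:28782635-28789524) stood at -0.31, with a range of -0.52 to -0.10. The fragment Shh_149 (chr5:28794058-28797606) stood at 0.68, with a range of 0.47 to 0.80. The fragment between them, Shh_147 (chr5:28789547-28793709), stood at -1.57 but had a total count of 7586 against 32657 and 24407 for its neighbours. Shh_144, at the left end of the Shh bin, stood at -1.01 with a total count of 5762. Shh_151, at its right end, stood at 0.42 with a total count of 15501, and its lowest library was just below 0. Farther right, Shh_152 and Shh_154 of bin 23 had means of 0.72 and 0.84. Shh_158 and Shh_162, the fragments of bin 24, had 1.27 and 1.06. A fragment of bin 23 with a total count of 4359, Shh_155, stood at 0.03, and 1 of bin 20 with the same total, Shh_134, at -0.74 with a range that crossed 0. Deposited bin values followed the counts per measurable fragment pair at 137 or 138 bin pairs of 1 library (Pearson's r of 0.914 to 0.970). These are fewer than the 293 member pairs with a value at least 2 bins apart. The correlation therefore does not cover every bin value used here. Bin pairs of a library share its depth, so the correlation is a description.

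**Figure D3:**
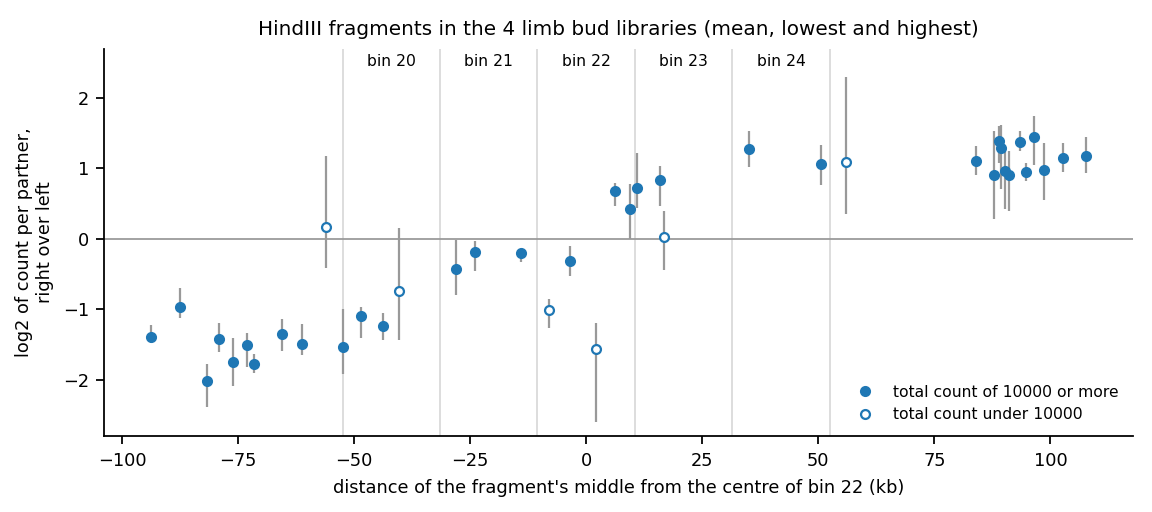
Each point is a HindIII fragment's mean log2 of count per partner to the right over the left in the 4 limb bud libraries, with lines from the lowest to the highest library, against its distance in kb from the centre of the Shh bin. Filled points pass from below 0 to above 0 inside bin 22, and open points have total counts under 10000.

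Bin 21 had a second area of raised contact at 819 to 966 kb to its right, with bins 60 to 67 (chr5:29577087-29745087, 7 bins with a value), on the Lmbr1 side. Its mean contact value with these bins was 24.3 and 30.5 in the wild type ESC libraries. It was 16.9 and 16.9 in DCTCF1, 35.8 and 33.1 in DCTCF2, and 24.0 and 24.4 in DCTCF3. It was 37.9 and 30.1 in DCTCF4, 32.7 and 29.5 in DCTCF5, and 23.2 and 21.1 in D35, where bin 65 counts as 0. The anterior limb bud libraries had 40.7 and 50.0, the posterior ones 35.4 and 39.9, and the embryo body 26.1. The limb bud values were thus above those of wild type ESC in all 4 libraries, and the DCTCF1 values were the lowest of the 19.

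Part of this level is set by distance, so each value was also divided by the library's mean at its separation. On this observed-over-expected scale, bin 21 stood at 2.57 and 3.31 in wild type ESC, 1.70 and 1.66 in DCTCF1, 4.12 and 3.88 in DCTCF2, 3.67 and 4.79 in anterior limb bud, and 3.00 and 3.42 in posterior limb bud. Among 56 bins, bin 21 ranked first or second in 16 of 19 libraries. The exceptions were both DCTCF1 libraries, where it ranked 7th and 5th, and D35 replicate 2, where it ranked 4th. Bin 24 ranked first in both DCTCF1 libraries, at 2.55 and 2.83, close to its own 2.55 and 2.67 in wild type ESC. Bin 20 ranged from first to 11th over the libraries, and bin 23 from first to 15th.

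Within bins 60 to 67 the contact of bins 21 and 23 peaked at bin 61. For bin 23 this partner was the highest of the 8 in all 19 libraries, with contact values of 30.6 in the lowest, 37.4 in the median and 68.3 in the highest. For bin 21 it was the highest in 15 libraries, with 23.0, 46.04 and 100.8. The bin 21 value with bin 61 was 30.3 and 46.04 in wild type ESC and 25.0 and 23.0 in DCTCF1, where the groups did not overlap. In the anterior limb bud it was 63.6 and 100.8, so 1 library is far above its replicate. For bin 20 bin 61 led in 13 libraries. Bin 24 has no separate value for bins 60 and 61, and that shared value led in 10.

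**Figure D4:**
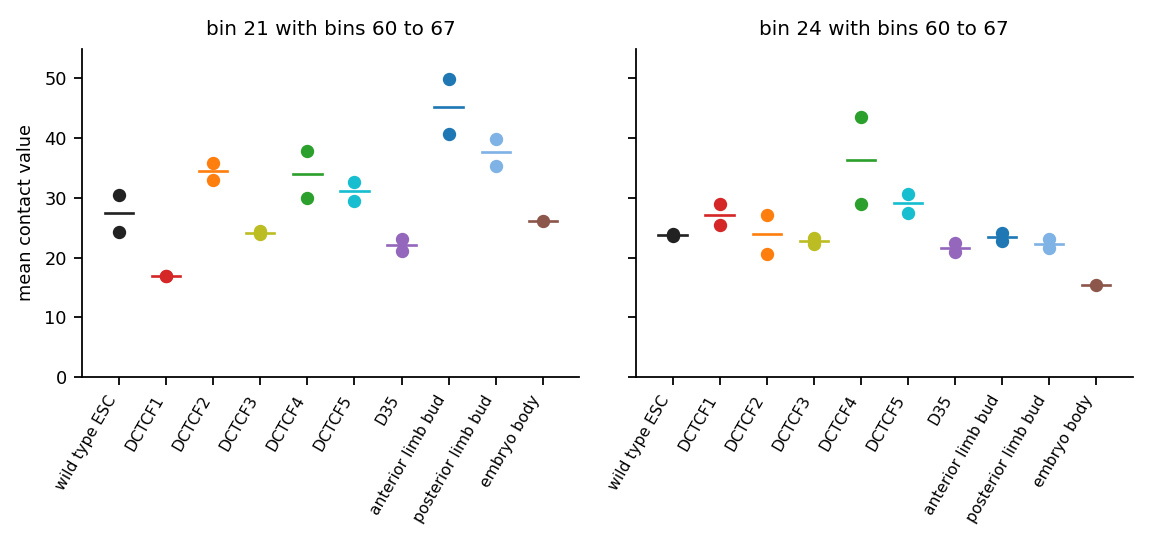
Mean contact value of bin 21 (left) and bin 24 (right) with bins 60 to 67 in each library (points) and the group mean (line), for 10 groups. For bin 21 both DCTCF1 libraries lie at 16.9, below both wild type ESC libraries, and all 4 limb bud libraries lie above them.

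The 6 edited ESC lines were compared with wild type by limma in 1 fit of the 14 ESC libraries, with p-values adjusted by Benjamini-Hochberg over all stripes, bins or pairs of the matrix and a threshold of 0.05. A stripe here is the mean contact of 1 bin, on 1 side, in 1 band of distance, and the 4 bins have 32 of the 559 stripes tested. For bin 21, the right stripes at 441 to 840 kb and 861 to 1239 kb hold partners among bins 60 to 67. Those stripes and its contact with bins 60 to 67 are therefore overlapping measures. Fold changes are on the log2(value + pseudocount) scale, with a pseudocount of 4.545, and understate the change of low values. All 6 comparisons share the 2 wild type libraries, so they are not independent of each other. Where stripes or pairs of the 4 bins are counted in an altered limma fit, the share called over the whole matrix is not given. Such counts do not single out the 4 bins.

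In DCTCF1, bin 21 lost contact to its right, while none of its left stripes passed the test. Its right stripe fell at 42 to 126 kb, 273 to 420 kb and 861 to 1239 kb, and the left stripe of bin 24 rose at 273 to 420 kb. These were 4 of 32 stripes of the 4 bins, against 1.07% of all 559 stripes called in this comparison. The 3 that fell compare with 0.894% of all stripes called lower, and the 1 that rose with 0.179% called higher.

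At 42 to 126 kb the right stripe of bin 21 was 19.01 and 20.6 in DCTCF1 against 30.1 and 33.5 in wild type. Its log2 change was -0.58 ± 0.12 (SE, limma adjusted p = 0.0278). At 273 to 420 kb it was 12.5 and 12.5 against 20.3 and 18.8, a change of -0.50 ± 0.11. At 861 to 1239 kb it was 12.2 and 11.6 against 18.2 and 17.1, a change of -0.43 ± 0.09. All 3 adjusted p-values came to 0.0278, and in each band the groups did not overlap. On the observed-over-expected scale the change at 42 to 126 kb was log2 -0.32 and no longer passed (adjusted p = 0.139). In the bands between them, the group means of bin 21 were 13.1 against 18.0 at 147 to 252 kb and 13.3 against 18.5 at 441 to 840 kb, which did not pass the test.

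On the left, bin 21 had 39.8 in DCTCF1 against 35.3 in wild type at 42 to 126 kb, 29.8 against 26.9 at 147 to 252 kb, and 33.9 against 33.7 at 273 to 420 kb. None of these passed the test. The left stripe of bin 24 at 273 to 420 kb was 26.6 and 27.3 in DCTCF1 against 15.1 and 16.8, a log2 change of 0.62 ± 0.13 (limma adjusted p = 0.0278). Neighbouring partners of bin 24 share values, so the 8 partners of that stripe hold fewer separate values.

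**Figure D5:**
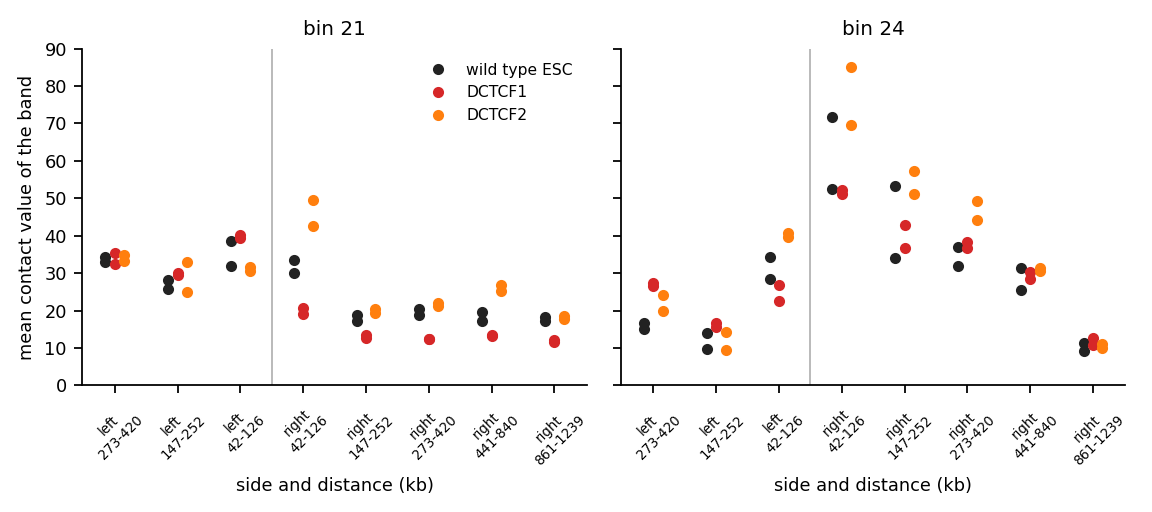
Mean contact value of bins 21 and 24 in each side and distance band (kb), with 1 point per library, for wild type ESC, DCTCF1 and DCTCF2. For bin 21 the DCTCF1 points lie below the wild type points in the 5 bands to the right and near or above them on the left.

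The right-to-left measure of bin 21 summarises this difference. It was -1.31 and -1.25 in DCTCF1 and -0.57 and -0.62 in wild type. In the limma fit over 54 bins, with the pseudocount, it differed by -0.55 ± 0.09 (adjusted p = 0.000654), where 3.7% of bins were called. Bin 23 was lower too, at 0.16 and -0.00 against 0.45 and 0.78 (limma log2 difference -0.43, adjusted p = 0.0522, not past the threshold). With the pair of bins 23 and 35 left out, that difference was -0.33 (limma adjusted p = 0.191). With only the 2 groups compared in the fit it was -0.42 and passed (limma adjusted p = 0.0132). Bin 20 (-1.29 and -1.30 against -0.89 and -1.15) and bin 24 (0.83 and 0.84 against 0.91 and 1.47) each had an adjusted p of 0.246. The bin 21 call held in all 10 alternatives run, with adjusted p from 0.000392 to 0.0185.

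The contact of bin 21 with bins 60 to 67 was lower in DCTCF1 too. Of these partners, bins 62, 63, 65, 66 and 67 also lie in its right stripe at 861 to 1239 kb. The fall of that stripe and this fall therefore share values and are not independent. The means with bins 60 to 67 were 16.9 ± 0.0015 and 27.4 ± 4.3 (SD, n = 2 each). This is a fall of log2 -0.57 ± 0.11 (limma adjusted p = 0.00778). This was the 1 bin called among 56, or 1.79%. Bins 20, 23 and 24 had log2 changes of -0.16, -0.14 and 0.16 and adjusted p-values of 0.283 to 0.401. None of 293 single pairs of the 4 bins passed limma's threshold, as in the whole matrix (0% of 2853). Before adjustment 40 of 293 had a p under 0.05, against 222 of 2853 in the whole matrix. The smallest p belonged to bin 21 paired with bin 32, at 9.30 and 9.51 against 17.9 and 18.9 (adjusted p = 0.145).

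Wild type and DCTCF1 each have 1 library run in 2015 and 1 run in the next year. Within the earlier and the later year the log2 difference of bin 21 with bins 60 to 67 was -0.43 and -0.71, and that of its right-to-left measure -0.60 and -0.50. The right stripe at 42 to 126 kb differed by -0.56 and -0.60, at 273 to 420 kb by -0.54 and -0.46, and at 861 to 1239 kb by -0.44 and -0.42. The stripe at 861 to 1239 kb shares partners with bins 60 to 67, so those differences are not independent. Bin 24's left stripe differed by 0.66 and 0.58. Leaving out any 1 of the 4 libraries left 0 stripes of the 4 bins called, with the directions kept. For bin 21 with bins 60 to 67 the adjusted p became 0.0757 and 0.0758 without DCTCF1 replicates 1 and 2, 0.229 when wild type replicate 2 was left out, and 0.00406 when replicate 1 was.

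In DCTCF2, bin 21 gained contact to its right in 1 band. Its right stripe at 441 to 840 kb was 26.9 and 25.3 against 17.2 and 19.7 in wild type, a log2 change of 0.41 ± 0.09 (limma adjusted p = 0.0446). It was 1 of 32 stripes of the 4 bins called, against 1.07% of all stripes. Within 2015, which holds both DCTCF2 libraries and 1 wild type library, the difference was 0.50. The adjusted p was 0.0506 with the replicate number as a block, 0.0735 with run year as a covariate, 0.0524 with only these groups in the fit, 0.192 and 0.157 without DCTCF2 replicates 1 and 2, and 0.200 without wild type replicate 1. With wild type replicate 2 left out, 3 stripes of the 4 bins were called.

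The contact of bin 21 with bins 60 to 67 was 34.5 ± 1.9 in DCTCF2 against 27.4 ± 4.3, a log2 difference of 0.29 ± 0.11 (limma adjusted p = 0.192, where 3.57% of 56 bins were called). Its right-to-left measure was -0.29 and -0.31 against -0.57 and -0.62 (adjusted p = 0.236, 0% of bins called). An unadjusted p under 0.05 was found for 1 of the 4 bins and for 5 of all 54. No single pair of the 4 bins passed, against 0.0351% of all pairs. Of these pairs 50 of 293 had an unadjusted p under 0.05, against 275 of all 2853. The smallest p was that of bins 23 and 35, at 28.8 and 10.3 against 46.8 and 62.1 (adjusted p = 0.235). Whether DCTCF1 and DCTCF2 differ from each other was not tested.

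In DCTCF4, 2 stripes of the 4 bins fell, which is the share called in the whole matrix. The left stripe of bin 20 at 147 to 252 kb was 21.1 and 22.2 against 32.8 and 29.7, a log2 change of -0.45 ± 0.09 (limma adjusted p = 0.00890). The right stripe of bin 23 at 42 to 126 kb was 16.3 and 11.7 against 29.2 and 23.4, a change of -0.74 ± 0.20 (adjusted p = 0.0348). These were 2 of 32 stripes (6.25%), against 6.26% of all stripes, so the bins do not stand out from the matrix in this count. The call on bin 23 was lost without DCTCF4 replicate 2 (adjusted p = 0.203). The contact of bin 24 with bins 60 to 67 rose, at 43.5 and 29.1 against 23.7 and 24.0 (log2 0.50 ± 0.14, adjusted p = 0.0268, 14.3% of bins called). DCTCF4 replicate 1 carried most of that rise: without it the change was 0.24 (adjusted p = 0.253). The call was also lost without wild type replicate 1 (0.140) or 2 (0.118), with run year as a covariate (0.0951) and on the observed-over-expected scale (0.0659). For bin 21 the change was 0.27 ± 0.11 (adjusted p = 0.117).

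Of single pairs in DCTCF4, 3 of 293 of the 4 bins were called, against 0.771% of all pairs. Bin 24 with bins 62 and 63, which is 1 shared value, rose from 20.9 and 24.3 to 38.3 and 41.3 (log2 0.71, adjusted p = 0.0262). Bin 8 with bin 21 fell from 66.2 and 49.2 to 26.3 and 26.8 (log2 -0.99, adjusted p = 0.0408). Within the year that holds both DCTCF4 libraries and 1 wild type library, the differences were -0.39 for the left stripe of bin 20, -0.60 for the right stripe of bin 23 and 0.50 for bin 24 with bins 60 to 67. With run year as a covariate, no stripe and no pair of the 4 bins was called. Without wild type replicate 1 there were 0 stripes and 0 pairs, without wild type replicate 2 there were 7 stripes, and without DCTCF4 replicate 1 there were 13 pairs.

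In DCTCF3 and DCTCF5 no stripe of the 4 bins passed limma's threshold, against 0.179% and 0% of all stripes. An unadjusted p under 0.05 was found for 4 and 2 of 32, against 52 and 65 of all 559. The smallest p in both belonged to stripes to the right of Shh. In DCTCF3 the right stripe of bin 24 at 273 to 420 kb was 42.3 and 47.6 against 32.0 and 36.9 (log2 0.34, adjusted p = 0.233). The right stripe of bin 23 at 147 to 252 kb was 17.7 and 16.3 in DCTCF3 and 16.4 and 17.5 in DCTCF5, against 22.3 and 25.8 (adjusted p = 0.233 and 0.178). With the pair of bins 23 and 35 left out, the adjusted p of that stripe became 0.892 and 0.589. The left stripe of bin 21 at 273 to 420 kb was 39.8 and 39.2 in DCTCF5 against 34.3 and 33.1 (adjusted p = 0.352).

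Bin 21 with bins 60 to 67 differed from wild type by log2 -0.15 ± 0.11 in DCTCF3 (limma adjusted p = 0.591) and by 0.16 ± 0.11 in DCTCF5 (adjusted p = 0.400), with 0% of bins called in each. No single pair of the 4 bins passed in either line (0% of all pairs in each). Before adjustment 27 and 18 of 293 had a p under 0.05, against 200 and 159 of all 2853. In DCTCF3 the smallest p was that of bin 18 with bin 23, at 5.30 and 4.22 against 12.7 and 13.2 (adjusted p = 0.154). In DCTCF5 it was bin 7 with bin 23, with a log2 difference of -1.04 (adjusted p = 0.382).

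In D35, bin 23 had more contact with bins 60 to 67. With bin 65 left out of every library the means were 27.4 ± 1.6 in D35 and 18.7 ± 2.0 in wild type (SD, n = 2 each), which is a rise of log2 0.46 ± 0.12 (limma adjusted p = 0.0163). Among all bins 19.6% were called, all higher. Leaving out D35 replicate 1, D35 replicate 2 or wild type replicate 2 gave an adjusted p of 0.0731, 0.101 or 0.121, and the observed-over-expected scale 0.0749. Bin 21 stood at 25.1 ± 1.7 against 26.9 ± 3.9 (log2 -0.08 ± 0.11, adjusted p = 0.693).

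No stripe of the 4 bins passed in D35, against 4.89% of 552 stripes. An unadjusted p under 0.05 was found for 8 of 32, against 119 of all 552. The right stripe of bin 24 at 273 to 420 kb was 24.9 and 28.7 against 32.0 and 37.0 (limma adjusted p = 0.0858). The left stripe of bin 21 at the same distance was 27.1 and 28.9 against 34.3 and 33.2 (adjusted p = 0.133). None of 289 single pairs passed, against 1.12% of all pairs. Before adjustment 42 of them had a p under 0.05, against 270 of all 2778. The pair of bin 21 and bin 66, next to the bin at 0, was 17.4 and 18.3 against 30.7 and 27.7 (adjusted p = 0.105).

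Posterior and anterior limb bud were compared because Shh is transcribed in the posterior margin of the limb bud and not in its anterior part. The contact of bin 21 with bins 60 to 67 was 35.4 and 39.9 in the posterior libraries and 40.7 and 50.0 in the anterior ones. The log2 difference was -0.23 ± 0.12 (limma adjusted p = 0.358, 0% of bins called). No stripe of the 4 bins passed, against 1.25% of all stripes. An unadjusted p under 0.05 was found for 2 of 32, against 111 of all 559. The left stripe of bin 24 at 273 to 420 kb was 17.4 and 19.2 in the posterior against 14.5 and 13.7 in the anterior libraries. The left stripe of bin 20 there was 25.0 and 22.4 against 19.4 and 17.8, and both had an adjusted p of 0.199.

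No single bin pair of the 4 bins passed between the limb bud parts (0% of all pairs). Before adjustment 23 of 293 had a p under 0.05, against 218 of all 2853. The smallest p was that of bins 8 and 23, at 22.9 and 27.1 against 8.41 and 8.87 (limma adjusted p = 0.558). At the level of fragments, edgeR's quasi-likelihood test called 0 of 1684 pairs with an end in the 4 bins and 0 of 23148 in all, or 0%. At an unadjusted p under 0.05 there were 60 and 745. DESeq2 called 9 of the pairs of the 4 bins and 77 in all. The common dispersion over the 4 libraries was 1.19, so counts of 1 pair spread widely between replicates. The pair with the smallest p joined Shh_140 of bin 21 with Shh_198 of bin 30, at counts of 93 and 102 in the anterior and 0 and 0 in the posterior libraries (edgeR adjusted p = 0.777).

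Wild type ESC and limb bud differed in 7 of 32 stripes of the 4 bins, against 14.5% of all stripes called. Bin 21 had more contact to the left in ESC and more to the far right in limb bud. Its left stripe at 273 to 420 kb was 34.3 and 33.1 in ESC against 22.1 and 19.1 in anterior and 18.5 and 21.5 in posterior limb bud (log2 0.61 ± 0.10, limma adjusted p = 0.000577). Its right stripe at 441 to 840 kb was 17.2 and 19.7 against 26.1, 27.6, 24.8 and 23.2 (log2 -0.37 ± 0.09, adjusted p = 0.0142). Neither pair of groups overlapped. The call on the right stripe was lost without wild type replicate 1 (adjusted p = 0.168) or without anterior replicate 1 (0.0555) or 2 (0.0639).

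Bin 21 had less contact with bins 60 to 67 in ESC than in limb bud, at 27.4 ± 4.3 (n = 2) and 41.5 ± 6.1 (n = 4). The log2 difference was -0.51 ± 0.10 (limma adjusted p = 5.85e-05, 17.9% of bins called). Bin 20 was lower in ESC as well, at 22.2 ± 2.4 against 29.6 ± 3.8 (adjusted p = 0.00737). Without wild type replicate 1 these adjusted p-values became 0.102 and 0.220, and on the observed-over-expected scale 0.0985 and 0.493. Without anterior replicate 2 that of bin 20 became 0.0570. Bins 23 and 24 did not pass (adjusted p = 0.193 and 0.822). The right-to-left measure was lower in ESC for bin 21 (-0.57 and -0.62 against -0.19, -0.15, -0.15 and 0.05, adjusted p = 0.00324) and higher for bin 23 (adjusted p = 0.0296), where 24.1% of bins were called. Without wild type replicate 2 these p-values became 0.0576 and 0.225. ESC are a cultured line and limb buds a mixed tissue, so a change in contact within cells and a change in the mix of cells cannot be told apart.

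To the right of Shh, bin 23 had more contact in ESC nearby. Its right stripe at 147 to 252 kb was 22.3 and 25.8 in ESC and 11.3 to 14.3 in the 4 limb bud libraries (log2 0.66 ± 0.10, limma adjusted p = 0.000510). The pair of bins 23 and 35, at 252 kb, carried much of this difference. Without that pair the stripe stood at 17.4 and 18.5 in ESC and 11.03 to 14.1 in limb bud, a smaller difference (log2 0.35 ± 0.09, adjusted p = 0.0244). The higher right-to-left measure of bin 23 was then no longer called (adjusted p = 0.0696). At 42 to 126 kb the right stripe of bin 23 was 29.2 and 23.4 against 14.8 to 20.0 (adjusted p = 0.00816). This call was lost without wild type replicate 1 (adjusted p = 0.143) or anterior replicate 1 (0.0506). Bin 24's right stripe was higher at 147 to 252 kb (34.2 and 53.2 against 24.7 to 34.9, where the groups overlap, adjusted p = 0.0240) and at 273 to 420 kb (32.0 and 36.9 against 23.3 to 29.04, adjusted p = 0.0340). Wild type replicate 2 decides the first of these: without it the difference fell from log2 0.49 to 0.20 (adjusted p = 0.506). Without it the second fell from 0.33 to 0.24 (adjusted p = 0.389). Both calls were also lost without either anterior library and on the observed-over-expected scale, with adjusted p of 0.0640 to 0.135. The second was lost with the replicate number as a block (adjusted p = 0.0808), while the right-to-left measure of bin 24 passed under the block (0.00568) and not otherwise (0.0812). To the left of Shh, bin 20's left stripe at 147 to 252 kb was 32.8 and 29.7 against 20.5 to 24.3 (adjusted p = 0.00636). That call was lost without wild type replicate 1 (adjusted p = 0.0701). Without anterior replicates 1 and 2, 3 and 4 stripes of the 4 bins were called.

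Of single pairs, 1 of 293 passed between ESC and limb bud, against 0.0701% of all pairs. It joined bin 23 with bin 35, at 46.8 and 62.1 in ESC and 12.1 to 18.3 in limb bud (log2 1.60, limma adjusted p = 0.0395). The 12 edited ESC libraries had 10.3 to 33.1 for this pair, so both wild type ESC libraries stand above all other libraries compared. It is the partner at 252 kb that stands out to the right of bin 23 in the plot of contact by distance. It was lost without either ESC library and without 3 of the 4 limb bud libraries, with adjusted p up to 0.307.

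In the D700 embryos the deletion brings bins 60 to 67 closer to Shh. The distances left from bin 21 to these bins are 147 to 294 kb, where unedited chromosomes have bins 28 to 35. After scaling on the bins that all libraries hold, with a pseudocount of 8.548, bin 21 had mean contact values of 51.1 and 51.9 with bins 60 to 67 in D700. The unedited libraries had 34.6 in the embryo body and 47.8 to 63.8 in limb bud. The log2 difference was 0.04 ± 0.07 (limma adjusted p = 0.836, 7.69% of 26 bins called). Without the body library the difference was -0.07. Both D700 values thus lay above the body and inside the limb bud range. The scaling counts separations on the reference, so pairs that the deletion brings side by side stay in the D700 totals. With tissue and deletion not told apart, the effect of the shorter distance was not tested.

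Bin 24, which lies nearest to the deleted stretch among the 4 bins, had more contact with bins 60 to 67 in D700. Its values were 51.0 and 52.8, against 20.4 in the body and 29.02 to 31.3 in limb bud, a log2 change of 0.72 ± 0.05 (limma adjusted p = 0.000234). The call held in all 11 alternatives run, with log2 changes from 0.29 to 1.70. The 11 include values without scaling, which are not comparable between D700 and the full matrices. They also include observed over expected, which divides out any gain shared by pairs that span the deletion. In unedited libraries bin 24 had 33.4 to 47.4 with bins 28 to 35, the partners at the distance that the deletion leaves. Bins 20 and 23 had 39.3 and 38.7, and 26.8 and 31.4, with bins 60 to 67 in D700. Both lay inside the unedited ranges of 35.5 to 43.1 and 24.7 to 31.5.

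At equal distances on the deleted chromosome, all 4 bins had more contact to the right than to the left in D700. The log2 of right over left was 0.48 and 0.21 for bin 20, 1.15 and 1.02 for bin 21, 0.96 and 0.96 for bin 23, and 0.88 and 0.85 for bin 24. For bins 20 and 21 this is opposite in sign to nearly all full libraries over 42 to 420 kb, but the partners and distances differ and the difference was not tested. With these same partners, the unedited libraries also had more contact to the right, although bins 60 to 67 lie farther away there. For bin 21 they had 34.6 to 63.8 on the right and 26.2 to 30.1 on the left. For bin 20 they had 35.5 to 43.1 and 27.5 to 35.2, so the direction with these partners is not particular to D700. The left contacts of bin 21 at those distances were 23.1 and 25.6 in D700 and 26.2 to 30.1 in the unedited libraries.

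Among 18 stripes of the 4 bins tested in D700, 1 was called, against 0.513% of all 195. It was the right stripe of bin 24 with partners at 861 to 1239 kb in the reference, at 26.3 and 24.9 in D700, 12.6 in the body and 13.9 to 20.7 in limb bud (log2 0.51 ± 0.10, limma adjusted p = 0.0145). It lost the call with the replicate number as a block (adjusted p = 0.0983), on the observed-over-expected scale (0.113), and without the body (0.0502), D700 replicate 1 (0.129) or anterior replicates 1 (0.128) and 2 (0.163). Of 169 single pairs 1 was called, against 0.403% of all pairs. It joined bin 23 with bin 59, the first bin after the deleted stretch, at 56.9 and 54.0 in D700 and 15.9 to 26.9 in the unedited libraries (log2 1.09, adjusted p = 0.0324). On the observed-over-expected scale the difference was 0.27 (limma adjusted p = 0.477). At the separations of this pair and of the bin 24 stripe, every D700 pair spans the deletion. That scale therefore divides out any gain that such pairs share, and it cannot test one. The call on bins 23 and 59 was also lost with a pseudocount of 1 (0.0854), without either D700 library (0.237 and 0.248) and without either anterior library (0.166 and 0.155).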

How the data were processed

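The series holds 23 samples in 21 libraries. Per the labels, cells were fixed with 1% formaldehyde and cut with HindIII before ligation and 5C. The authors deposited binned matrices of a contact signal with no stated normalization, in mm9 per the submitters' processing notes, and, for limb bud, fragment matrices of counts (whole numbers, per the values). The sources used here give no aligner. Matrices that add replicates were not used, nor were the authors' own deposited observed-over-expected ratio matrices; the ratio used here was computed from the contact values.

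Groups follow the sample titles. Each library was scaled to one total over pairs at least 2 bins apart (48571.5 in full libraries, 47046.9 without bin 65 for D35, 28310.9 without the deleted bins for D700). Pairs above 0 in at least 50% of the libraries were kept. Stripes, right-to-left measures, contact with bins 60 to 67 and single pairs were fitted by limma 3.58.1 (R 4.3.3) on log2(value + pseudocount), the 5th percentile of values above 0 (4.545 for the DCTCF lines, 4.533 for D35, 5.359 for limb bud, 8.548 for D700, and 5.184 for the comparison of ESC with limb bud). P-values were adjusted by Benjamini-Hochberg over all features of the matrix. The D700 fit uses the lone body library with the spread of the others. Fragment pairs with a sum of at least 10 counts were tested by edgeR 4.0.16, with DESeq2 1.42.0 as an alternative. The limma and edgeR steps were tested on simulated data.

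Named are the stripes past the threshold, at most 8 a comparison, or else the 2 of smallest p; the pairs past it, at most 5, or else the 1 of smallest p. Bin 21 with bins 60 to 67 is given throughout. The members, bands and lists were chosen with earlier results of these data known. Same-numbered limb bud libraries share a run day in the labels, which pairs them; the correlation of their deviations was -0.03. The within-year values, and the values without the pair of bins 23 and 35, were chosen after seeing the data. No sequence is printed, since no mm9 genome was used here.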

Additional observations from a re-analysis of the deposited data

How the results depend on the processing

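Alternatives were a pseudocount of 1, no scaling, observed over expected, the replicate block, run year as a covariate, only the 2 groups compared, bin 65 left out, no filter on low values, each library left out in turn and, chosen after seeing the data, the pair of bins 23 and 35 left out of stripes and right-to-left measures. Counts below are of stripes, pairs and fragment pairs of the 4 bins past the threshold, and differences are log2 for bin 21 with bins 60 to 67. The share of all stripes or pairs called under each limma alternative is not given, so these counts do not single out the 4 bins. The cause of these changes was not tested.

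With only 2 groups in the fit, DCTCF1 had 2 pairs, and DCTCF4 had 1 stripe and 0 pairs. On the observed-over-expected scale there were 2 stripes in DCTCF2, 4 stripes and 1 pair in DCTCF4, 2 stripes in D35, 0 stripes and 0 pairs in D700 and 0 pairs for ESC against limb bud. Bin 21 with bins 60 to 67 then differed by 0.41 in DCTCF2 (limma adjusted p = 0.0348), by -0.10 in D700 and by -0.29 for ESC against limb bud (adjusted p = 0.0985). In D700 all pairs at those separations span the deletion, so this scale divides out any gain that they share and cannot test it. With run year as a covariate DCTCF2 had 0 stripes, and DCTCF4 0 stripes and 0 pairs. With a pseudocount of 1 there were 0 pairs in DCTCF4, D700 and ESC against limb bud. Without scaling D700 had 18 of 18 stripes and 163 of 169 pairs and a difference of 1.02 (adjusted p = 3.1e-05). The deposited D700 totals, 71836 and 70568, lie over 46 bins with a value. Those of the unedited E11.5 libraries, 62112 to 94312, lie over 77 bins. Unscaled values are thus not comparable between them, and this setting cannot test a change of the 4 bins. DESeq2 called 9 fragment pairs between the limb bud parts.

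With the replicate block DCTCF2 had 0 stripes, DCTCF4 5 pairs, and D700 0 stripes and 2 pairs. Between ESC and limb bud it left 6 of 7 stripes, losing the right stripe of bin 24 at 273 to 420 kb (limma adjusted p = 0.0808), and it brought the right-to-left measure of bin 24 past the threshold (0.00568). It changed no other call of a named feature, and no other count of stripes or pairs. Same-numbered ESC libraries share only a number, and their deviations correlated between -0.09 and 0.02.

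Leaving out 1 library at a time, stripes ranged 0 to 0 in DCTCF1, 0 to 3 in DCTCF2, 0 to 7 in DCTCF4, 0 to 1 in D35 and D700, and 3 to 9 for ESC against limb bud. Pairs ranged 0 to 1 in DCTCF2, DCTCF5 and ESC against limb bud, 0 to 13 in DCTCF4, 0 to 2 in D35, and 0 to 5 in D700 and between the limb bud parts. The difference for bin 21 ranged -0.71 to -0.43 in DCTCF1, 0.12 to 0.42 in DCTCF4, -0.21 to 0.050 in D35, -0.074 to 0.11 in D700 and -0.65 to -0.38 for ESC against limb bud.

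Of the single features named, 615 results were on the same side of the threshold with the same direction, 97 lost the call, 12 gained it and 25 changed sign. All 25 were differences in the right-to-left measure that did not pass the test, with limma adjusted p of 0.322 or more under the alternative. The 5 not from leaving out a library were bin 23 in D35 (0.063, pair of bins 23 and 35 left out), bin 21 in DCTCF3 (-0.049, observed over expected), bin 20 in DCTCF4 (-0.0019, pseudocount of 1), bin 23 in DCTCF4 (-0.026, run year) and bin 20 between the limb bud parts (-0.056, observed over expected). The other 20 came from leaving out 1 library. There the measure ranged -0.19 to 0.31 for bin 24 in DCTCF2. In DCTCF3 it ranged -0.17 to 0.042 for bin 20, -0.14 to 0.14 for bin 21 and -0.049 to 0.19 for bin 23. In DCTCF4 it ranged -0.11 to 0.13 for bin 20, -0.12 to 0.12 for bin 23 and -0.12 to 0.38 for bin 24. In DCTCF5 it ranged -0.28 to 0.048 for bin 23 and -0.28 to 0.22 for bin 24. In D35 it ranged -0.17 to 0.039 for bin 20, -0.14 to 0.13 for bin 23 and -0.47 to 0.027 for bin 24. For bin 20 between the limb bud parts it ranged -0.037 to 0.096. With 2 libraries a group and an unknown depth, a call that was lost is not shown to be absent.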
